A study of Mus musculus with 15 samples.

Results

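The 6 libraries described here compare primary mouse ileal organoids that received a human-like bile acid pool with a 90% share of 12α-hydroxylated bile acids (H90, 3 libraries) with organoids that received a human-like pool with a 10% share (H10, 3 libraries). They were taken by their titles from 15 libraries, which also hold 3 vehicle libraries and 3 libraries each of the mouse-like pools at the same shares (M10 and M90). Crypts came from the ileum of C57BL/6 mice, and no genetic change is named in the labels. Organoids of passage 2 were split at day 10, and treatment began at day 14. They were opened by pipetting so that the inside of the epithelium met the medium, and were kept for 24 h in DMEM with 0.2% BSA holding vehicle or a pool. The bile acids in each pool and their concentrations are not given in the sources used here. Nor do the labels say whether the replicates a, b and c of a group came from separate mice or cultures, so p-values measure the spread between these libraries, which may be technical. Levels are CPM (counts relative to library size) scaled by TMM, given for replicates a, b and c in that order. Changes are log2 differences, H90 minus H10.

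Bile acids are made from cholesterol in the liver, and the enzyme Cyp8b1 adds the hydroxyl group at carbon 12 that separates cholic and deoxycholic acid from chenodeoxycholic, muricholic and lithocholic acid. The ileum is where conjugated bile acids are taken back up. There they are ligands of the nuclear receptor FXR (gene Nr1h4), which induces the hormone gene Fgf15, and single bile acids can also act through the vitamin D receptor, PXR and the membrane receptor Gpbar1. Organoids grown from crypts hold stem cells, dividing progenitors, absorptive enterocytes and the secretory types, with no blood or connective tissue.

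The libraries held between 11245807 and 25845919 counts, with H90 c the smallest. Markers of intestinal epithelium were high: Vil1 was between 1690 and 2420 CPM and Epcam between 1486 and 1737 in all 6. The ileal bile acid binding protein Fabp6 was between 4463 and 7605 in all 6, against 46.1 to 62.4 in vehicle. Its level is therefore not taken as a marker of cell identity. Some features set libraries apart. The plasma protein transcript Mup20 was between 23.0 and 35.9 unscaled CPM in H10 and 31.0 in H90 a, but 0.458 and 0.356 in H90 b and c, and Col1a1 was at most 0.107 in H10, 0 in H90 a, and 5.90 and 8.63 in H90 b and c. The ribosomal precursor RNA Rn45s was 14143 unscaled CPM in H90 a, against 1863 to 3215 in the other 5. Between 450 and 570 genes had exactly 1 count in an H10 library and between 221 and 297 in an H90 library. The part of these features in the results was not tested, and genes named below for the size of their change have a mean of at least 2 CPM. H90 a alone against H10, a comparison among libraries alike in Mup20 and Col1a1, was also fitted. It uses libraries of the main fit again, so agreement between them is not independent. In that comparison H90 is 1 library, which is assumed to vary as the libraries of the other groups do, and it is the library with the highest Rn45s.

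Of 13159 genes tested, 4815 (36.6%) passed the adjusted p threshold of 0.05 in H90 against H10, with 2398 higher (18.2%) and 2417 lower (18.4%) in H90. The median change over all genes tested was 0.01. All H90 libraries lay above all H10 libraries for 2991 genes and below them for 3017. Large changes were mostly rises: 569 of the genes called were at least 2-fold higher and 134 at least 2-fold lower. Among 37 gene lists, those of mitosis, repair by homologous recombination and DNA replication had the highest medians, and those of vitamin D receptor targets, bile acid handling and immediate early genes the lowest among lists with at least 10 tested epithelial genes.

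Genes of ileal bile acid handling were lower in H90, with 10 of 12 members called lower and none higher (18.4% of all genes were called lower), and a median change of -0.65. The lower members include the manganese exporter Slc30a10, which is also in the vitamin D and metal lists. Fgf15 (chromosome 7, 144896532 to 144900953 in GRCm38), the hormone that tells the liver to slow bile acid synthesis, was at 961, 998 and 958 CPM in H10 and 345, 413 and 375 in H90. All H90 libraries lay below all H10 libraries and far above vehicle, which was between 14.4 and 18.9. The change was -1.37 (SE 0.072, adjusted p = 2.75e-11), or 2.58-fold lower in H90. Nr0b2, which encodes the FXR-induced repressor SHP, was at 11.6, 13.2 and 10.1 CPM in H10 and at 5.91, 8.02 and 5.08 in H90, a change of -0.86 (SE 0.24, adjusted p = 0.00608). Its vehicle libraries were at most 0.641, so both pools stood above vehicle here too. Nr1h4 itself (FXR) was at 169, 177 and 171 CPM in H10 and 120, 130 and 131 in H90 (-0.44, SE 0.053, adjusted p = 1.38e-08), the latter within or just above the vehicle range of 117 to 124. The membrane receptor Gpbar1 was at most 1.57 CPM in every library and its change of -0.02 (SE 0.74) was not called.

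Among transport genes, the cytosolic carrier Fabp6 was at 6899, 7502 and 7605 CPM in H10 and at 4463, 5390 and 5199 in H90, a change of -0.55 (SE 0.099, adjusted p = 0.00107), while vehicle was between 46.1 and 62.4. For the basolateral exporter Slc51a the H10 libraries read 1140, 1228 and 1196 CPM and the H90 libraries 720.5, 806 and 792 (-0.62, SE 0.045, adjusted p = 6.98e-14). Its partner subunit Slc51b changed by -0.68 (SE 0.049), from 559 to 618 CPM in H10 down to 335 to 393 in H90. Both subunits were at intermediate levels in H90, above the vehicle ranges of 180.1 to 189 and 50.0 to 54.7 CPM. The uptake transporter Slc10a2 differed from these: H10, at 67.5, 75.6 and 66.8 CPM, overlapped the vehicle range of 56.2 to 71.2, and H90, at 43.0, 49.8 and 35.5, lay below it (-0.70, SE 0.14, adjusted p = 0.00124). The organic anion exporters Abcc2 (-0.80, SE 0.046) and Abcc3 (-0.49, SE 0.050) were also lower in H90, whereas Abcb11, between 0.434 and 1.14 CPM, was not called. Slc30a10, a manganese exporter induced by vitamin D in the gut, was at 132, 113 and 123 CPM in H10 and 31.2, 33.0 and 33.8 in H90, or 3.78-fold lower (-1.92, SE 0.12, adjusted p = 1.01e-09).

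**Figure D1:**
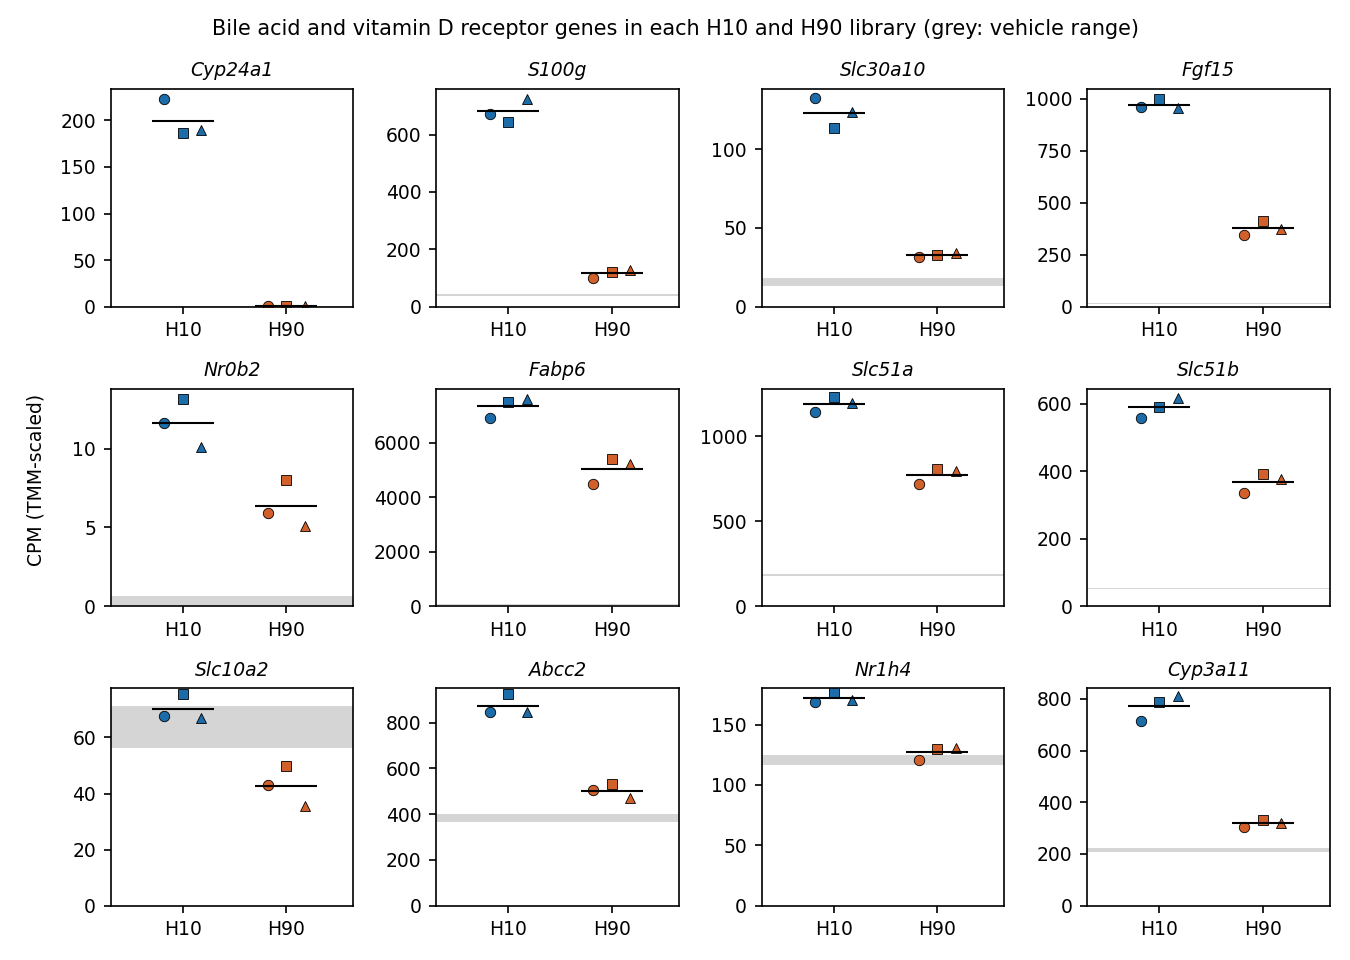
CPM (y axis, TMM-scaled, from 0) of 12 bile acid and vitamin D receptor genes in each H10 (blue) and H90 (orange) library; circles, squares and triangles are replicates a, b and c, black lines the group means and grey bands the vehicle range. No H10 and H90 libraries overlap in any panel, and Cyp24a1 falls from 186 to 223 CPM in H10 to at most 0.762 in H90. Of all 13159 genes tested, 2991 had all H90 libraries above all H10 libraries and 3017 had them all below. Cyp24a1, S100g and Slc30a10 are among the largest falls, which were chosen for not overlapping.

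The largest fall of all was in Cyp24a1 (chromosome 2, 170482957 to 170497145), the enzyme that breaks down active vitamin D and a direct target of its receptor. It was at 223, 186 and 190 CPM in H10 and at 0.431, 0.759 and 0.762 in H90, which is 4131, 3583 and 4835 counts against 11, 14 and 9. H90 was thus close to the vehicle level of 0.117 to 0.387 CPM, and H10 was not. The change was -8.34 (SE 0.14, adjusted p = 2.17e-29), or 323-fold lower in H90. S100g (chromosome X, 162961992 to 162964599), the cytosolic calcium carrier calbindin-D9k, was at 673, 644 and 724 CPM in H10 and 101, 121 and 127 in H90, 5.86-fold lower (-2.55, SE 0.11, adjusted p = 3.27e-09). The plasma membrane calcium pump Atp2b1 fell by 0.98 (SE 0.057), from 571 to 590 CPM down to 284 to 299. Of 12 tested vitamin D receptor genes, 7 were lower and 1, Rxra, was higher by 0.13 (a call lost when any 1 of 5 of the 6 libraries is left out), with a median of -0.75. The receptor Vdr itself was not called, at 710.4, 726 and 769 CPM in H10 and 778, 758 and 797 in H90 (0.08, SE 0.041, adjusted p = 0.128). The apical calcium channel gene Trpv6 did not pass the filter on low counts.

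Genes induced through PXR and CAR, the receptors that sense drugs and bile acids, were lower as a group, with 16 of 20 members called lower, none higher and a median of -0.38. Abcc2 and Abcc3, shared with the bile acid handling list, are among the lower members. Cyp3a11, a main drug and bile acid hydroxylase shared with the vitamin D list, was at 715, 788 and 812 CPM in H10 and 306, 330 and 321 in H90 (-1.27, SE 0.079, adjusted p = 2.64e-09), with vehicle between 206 and 224. Cyp3a13 fell by 0.86 (SE 0.049) and the drug efflux pump Abcb1a by 0.50 (SE 0.047). The PXR gene Nr1i2 was lower by 0.29 (SE 0.054), and the CAR gene Nr1i3 was not called (0.15, SE 0.13). Cyp2b10, a classical CAR target, was between 178 and 225 CPM over both groups and was not called. Of 5 tested genes of the aryl hydrocarbon receptor only Tiparp was called, lower by 0.67 (SE 0.12), and Ahr was not (0.12, SE 0.13). In H90 a alone against H10 the adjusted p of Tiparp was 0.0543.

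Cell division genes showed the opposite direction, and no member of either list below was lower. All 37 tested genes of DNA replication were higher in H90 (18.2% of all genes were), with a median of 1.69 and a range from 0.30 (Pcna) to 2.48 (Pole, the leading-strand polymerase). The replicative helicase subunit Mcm6 was at 15.5, 20.7 and 17.4 CPM in H10 and 64.7, 57.6 and 63.6 in H90, 3.47-fold higher (1.79, SE 0.096, adjusted p = 3.01e-17). Vehicle, between 97.1 and 104 CPM, was higher still. Rrm1, the large subunit of the reductase that makes deoxynucleotides, rose from 15.9 to 18.6 CPM up to 59.8 to 73.2 (1.98, SE 0.089). By role, licensing factors (12 genes) had a median of 1.83, nucleotide supply (7 genes) 1.87, polymerase and fork genes (13 genes) 1.58 and helicase accessory genes (5 genes) 1.56.

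All 40 tested genes of mitosis and the spindle were higher too, with a median of 1.84 and a range from 0.97 (Kif23) to 2.36 (Ska1). Top2a, the topoisomerase of dividing cells, was at 42.2, 34.2 and 36.5 CPM in H10 and 189, 152 and 154 in H90 (2.14, SE 0.077, adjusted p = 1.24e-21). The mitotic kinase Cdk1 rose by 1.63 (SE 0.10) and the anaphase activator Cdc20 by 1.60 (SE 0.10). Mki67, the common marker of cycling cells, was between 46.7 and 54.5 CPM in H10 and between 186 and 219 in H90, with vehicle between 280.3 and 296. H90 lay between H10 and vehicle for each of these 4 genes. In bulk libraries, fewer cells of a type and less RNA of that type per cell cannot be told apart, here and in every group below.

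Because these genes moved together, the 250 bases before the RefSeq start site of 3 of them are shown (GRCm38.p6, 5′ to 3′ on the gene's strand), each among the 4 members of its list with the smallest adjusted p. No further rule chose these 3, so they are examples and need not be typical of their lists. Mcm6 lies upstream at chr1:128359706-128359955, Cdk1 at chr10:69352913-69353162 and Cdc20 at chr4:118437344-118437593, all on the minus strand. Capitals mark matches, on either strand, to an E2F word (TTTGGCGC or TTTCCCGC or TTTGCCGC or TTTCGCGC), to the cell cycle word CHR (TTTGAA) and to CCAAT, the box bound by NF-Y. In Mcm6 the first run of capitals is a forward and a reverse E2F word that overlap.
Mcm6: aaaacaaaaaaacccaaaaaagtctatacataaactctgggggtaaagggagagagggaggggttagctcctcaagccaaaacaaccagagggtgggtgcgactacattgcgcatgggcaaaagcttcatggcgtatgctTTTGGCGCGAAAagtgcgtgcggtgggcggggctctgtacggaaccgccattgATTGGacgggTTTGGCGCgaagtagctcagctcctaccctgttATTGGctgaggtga
Cdk1: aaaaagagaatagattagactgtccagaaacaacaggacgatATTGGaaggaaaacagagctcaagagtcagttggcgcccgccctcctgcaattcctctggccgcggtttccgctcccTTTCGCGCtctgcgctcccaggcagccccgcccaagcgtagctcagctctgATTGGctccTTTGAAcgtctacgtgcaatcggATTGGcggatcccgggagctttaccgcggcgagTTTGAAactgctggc
Cdc20: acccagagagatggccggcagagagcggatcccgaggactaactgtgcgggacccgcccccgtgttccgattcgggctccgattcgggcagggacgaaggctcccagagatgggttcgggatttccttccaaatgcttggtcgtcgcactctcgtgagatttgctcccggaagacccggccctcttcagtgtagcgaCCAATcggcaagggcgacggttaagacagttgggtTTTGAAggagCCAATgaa
In Mcm6 the E2F words begin 110, 106 and 47 bases before the start, and Cdk1 and Cdc20 hold a CHR word 15 and 18 bases before theirs. Over 32851 RefSeq windows of this length, 1.86% held an E2F word, 16.0% a CHR word and 33.8% a CCAAT word. Those windows cover 27025 genes, expressed here or not, while the lists below hold only tested genes, so the sets are not alike. Windows were found for 29 of 37 replication genes and 31 of 40 mitosis genes, 33 windows for each list. An E2F word stood in 24.2% of replication windows and 6.06% of mitosis windows, a CHR word in 15.2% and 36.4%, and CCAAT in 51.5% and 72.7%. These are counts of letters, not of bound sites.

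Among 30 regulators of the cell cycle, 16 were higher and 4 lower. Ccnd1, the D-type cyclin that starts the cycle after growth signals, was at 18.5, 19.5 and 15.7 CPM in H10 and 68.5, 66.9 and 67.0 in H90 (1.92, SE 0.097, adjusted p = 7.11e-18), and Ccnd2 rose by 0.84 (SE 0.056). Of the 8 E2F genes 6 were higher, led by the late repressors E2f7 (2.23, SE 0.29) and E2f8 (2.19, SE 0.13) and the activators E2f1 (1.36, SE 0.26) and E2f2 (1.26, SE 0.078), while E2f3 and E2f5 were not called. Myc rose by 0.78. The 4 lower genes were the inhibitors Cdkn1a (p21, -0.72) and Cdkn2b (-0.68), the MYC antagonist Mxd1 (-0.45) and Rb1 (-0.26). The calls of E2f4, E2f6 and Rb1 are not kept in H90 a alone against H10. Of 19 tested genes of homologous recombination and Fanconi repair 18 were higher and none lower, with a median of 1.83. Brca1 rose by 2.02 (SE 0.23), Fanca by 2.25 (SE 0.24) and Rad54l by 2.39 (SE 0.29). Targets of p53 went the other way, with 11 of 20 lower and none higher and a median of -0.29. Gdf15, a stress hormone, was at 35.8, 36.6 and 31.8 CPM in H10 and 11.4, 12.0 and 12.9 in H90 (-1.53, SE 0.12), and Pmaip1 (-0.71), Trp53inp1 (-0.68) and Btg2 (-0.53) were also lower.

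Factors that build ribosomes rose in 28 of 34 cases, with none lower and a median of 0.66. The snoRNP core protein Nop56 was at 25.5, 24.2 and 25.4 CPM in H10 and 64.2, 63.4 and 63.9 in H90 (1.35, SE 0.095), and Dkc1 (1.39), nucleolin Ncl (0.76) and nucleophosmin Npm1 (0.73) rose as well. The precursor transcript Rn45s, which this poly-A-selected assay measures poorly, was at 2147, 1877 and 1936 CPM in H10 and 13337, 2949 and 3061 in H90. Its change (1.70, SE 0.49, adjusted p = 0.0192) rested in size on H90 a, and its call is lost when any 1 H10 library is left out. Rmrp and Rpph1, RNA parts of RNase MRP and RNase P that carry no poly-A tail, were also highest in H90 a. Rmrp was at 0.485, 0.728 and 0.549 CPM in H10 and 8.58, 2.93 and 2.79 in H90, and Rpph1 at 0.862, 1.09 and 2.90 against 18.8, 6.72 and 7.79. Their changes were 3.04 (SE 0.51) and 2.74 (SE 0.39).

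Crypt stem cell genes were higher in 14 of 23 cases and lower in 1 (Msi1, -1.0, not called in H90 a alone against H10), with a median of 0.71. Olfm4 (chromosome 14, 80000302 to 80023141), a secreted marker of crypt base stem cells in the ileum, was the largest rise among genes named for size. It was at 0.700, 0.260 and 0.431 CPM in H10, which is 13, 5 and 11 counts, and at 24.8, 18.6 and 16.3 in H90, while vehicle was between 78.4 and 87.4. The change was 5.44 (SE 0.27, adjusted p = 9.68e-16), 43.4-fold higher in H90. The Wnt target Axin2 was at 6.36, 6.19 and 8.27 CPM in H10 and 39.6, 31.4 and 34.6 in H90 (2.33, SE 0.13, adjusted p = 2.03e-16), with vehicle between 49.6 and 55.5. Ephb2, which positions cells along the crypt, rose by 1.30 (SE 0.092), the stem cell factor Ascl2 by 1.69 (SE 0.41) and Sox9 by 1.01 (SE 0.14). The stem cell receptor Lgr5, at 2.10 to 3.41 CPM in H10 and 4.15 to 4.97 in H90, did not pass (0.59, SE 0.27, adjusted p = 0.0910). Myb, a transcription factor of progenitors, was at 7.17, 6.08 and 4.55 CPM in H10 and 40.4, 46.4 and 31.9 in H90 (2.76, SE 0.16).

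Other large rises were spread over several functions. Dmbt1, a mucosal scavenger glycoprotein, was at 16.4, 12.5 and 13.9 CPM in H10 and 117, 121 and 125 in H90, 8.46-fold higher (3.08, SE 0.10, adjusted p = 8.94e-20). Fork and spindle genes among the largest rises were Timeless (2.64, SE 0.25), Clspn (2.62, SE 0.22) and Aspm (2.58, SE 0.24). Repair and chromatin genes were Rad54b (2.82, SE 0.40), Fignl1 (2.77, SE 0.29), Ankle1 (2.83, SE 0.30) and Suv39h2 (2.80, SE 0.33). Nmral1 was at 0.700, 0.936 and 0.823 CPM in H10 and 5.44, 4.01 and 8.55 in H90 (2.84, SE 0.39, adjusted p = 2e-07). Vehicle, between 6.47 and 11.1 CPM, overlapped H90 and lay above H10.

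**Figure D2:**
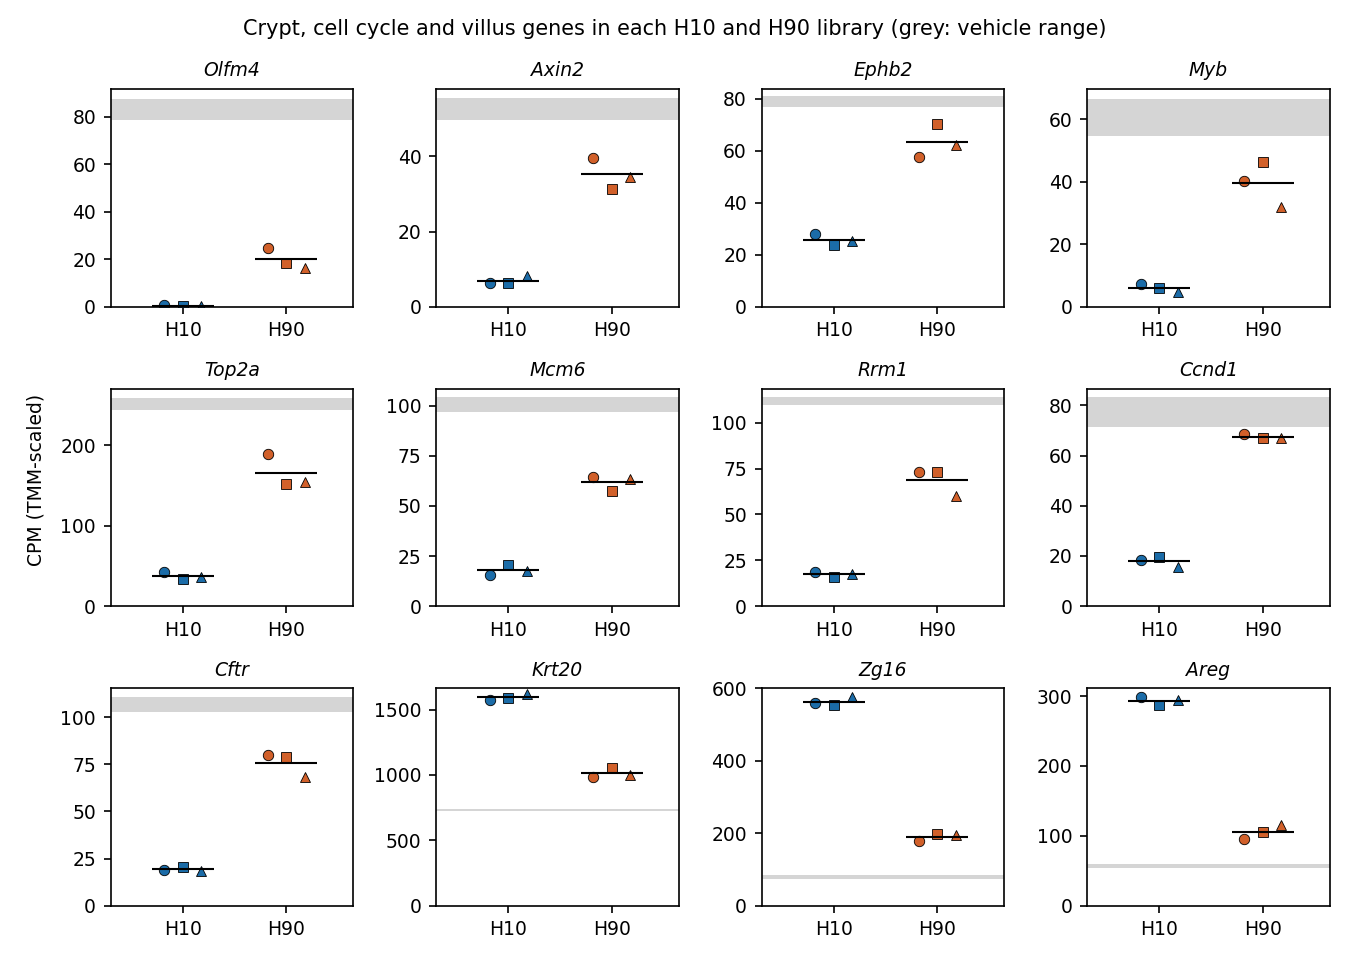
CPM (y axis, TMM-scaled, from 0) of 12 crypt, cell cycle and villus genes in each H10 (blue) and H90 (orange) library; circles, squares and triangles are replicates a, b and c, black lines the group means and grey bands the vehicle range. Crypt and cell cycle genes (Olfm4 to Cftr) are higher in H90 and Krt20, Zg16 and Areg lower, and in every panel the H90 libraries lie on the vehicle side of the H10 libraries. Olfm4, Myb, Zg16 and Areg were chosen for a large change without overlap between H10 and H90.

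Of 6 tested genes of chloride secretion 4 were higher and 1 lower, the channel Ano1 (-0.67, SE 0.12), while the symbol Clca1 was not called. The files use older symbols for some genes, and whether their Clca1 is the gene now so named was not checked. Cftr, the apical chloride channel, was at 19.2, 20.6 and 18.2 CPM in H10 and 80.0, 78.8 and 68.2 in H90 (1.98, SE 0.094, adjusted p = 1.10e-18), and the basolateral loader Slc12a2 rose by 1.54 (SE 0.11). Kcne3, a potassium channel subunit that drives secretion, was at 2.80, 2.44 and 2.59 CPM in H10 and 15.9, 20.9 and 18.5 in H90 (2.82, SE 0.21), and its partner Kcnq1 rose by 1.11 (SE 0.083). Sodium absorption genes were all lower (5 of 5, median -0.43), among them the pump subunit Atp1b1 (-0.43, SE 0.039). Over the 24 ion transport genes tested, 7 were higher and 9 lower.

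Genes of mature absorptive enterocytes were lower in 22 of 30 cases and higher in none, with a median of -0.47. Krt20, a keratin of the villus, was at 1570, 1587 and 1620 CPM in H10 and 985, 1056 and 999.6 in H90 (-0.65, SE 0.038, adjusted p = 3.05e-16), and vehicle was between 726 and 742. The brush border motor Myo1a (-0.52, SE 0.038) and the bundling protein Vil1 (-0.48, SE 0.038) fell by similar amounts. Slc2a2, the basolateral glucose carrier GLUT2, was at 91.9, 86.9 and 95.2 CPM in H10 and 39.7, 44.9 and 34.5 in H90 (-1.19, SE 0.087), below the vehicle range of 50.3 to 63.7. Tight junction and adhesion genes fell in 13 of 20 cases and rose in none (median -0.28), among them Ocln (-0.56, SE 0.048), F11r (-0.55, SE 0.045), Cldn3 (-0.39, SE 0.047) and Cdh1 (-0.36, SE 0.040).

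Goblet cell genes were lower in 12 of 18 cases and higher in 1, with a median of -0.43. The list holds Clca1 and not Clca3, and whether these symbols of the files name the same genes today was not checked. The granule lectin Zg16 was at 561, 553 and 576 CPM in H10 and 178, 199 and 194 in H90, 2.96-fold lower (-1.57, SE 0.059, adjusted p = 5.58e-18). The mucus proteins Fcgbp (-0.87, SE 0.057) and Tff3 (-0.85, SE 0.062) fell with it, as did the membrane mucin Muc13 (-0.46, SE 0.043) and Clca3, a calcium-activated chloride channel regulator, from 485 to 491 CPM down to 122 to 137 (-1.92, SE 0.062). For Paneth cells 2 of 14 genes were higher and 3 lower, shares near the background, and the median was -0.10, with Lyz1 (-0.48, SE 0.13) and Itln1 (-0.53, SE 0.12) lower and Reg3g (0.53, SE 0.048) and Sox9 higher. The calls of Lyz1 and Itln1 are not kept in H90 a alone against H10, and over the alternatives their adjusted p reached 0.150 and 0.103. For enteroendocrine cells 3 of 30 genes were higher and 4 lower, also near or below the background. Hormone genes Sst (-0.56), Gip (-0.38) and Cck (-0.33) were lower and the precursor factor Nkx2-2 was higher (0.78, SE 0.26), and the calls of Gip and Nkx2-2 are each lost when some single libraries are left out. Of 18 tuft cell genes only Kctd12 was called (-0.26, SE 0.066). The medians of these last 2 lists, -0.05 and -0.04, turn positive when only library size is used for scaling.

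Lipid genes were lower in H90. Fat absorption and chylomicron genes fell in 21 of 28 cases and rose in none, with a median of -0.37. Cidec, a lipid droplet fusion protein, was at 74.9, 74.6 and 73.7 CPM in H10 and 29.1, 29 and 31.6 in H90 (-1.32, SE 0.067, adjusted p = 6.29e-18). Acsl5, which activates fatty acids, fell by 0.73 (SE 0.043), the chylomicron assembly protein Mttp by 0.56 (SE 0.040) and the triglyceride enzyme Dgat2 by 0.56 (SE 0.063). Of 34 PPAR targets and fatty acid oxidation genes 19 were lower and 2 higher (median -0.27), with the peroxisomal enzyme Hsd17b4 (-0.63, SE 0.050), the mitochondrial Hadha (-0.31) and the factor Creb3l3 (-0.48) lower. The receptor genes fell by 0.35 (Ppard), 0.28 (Pparg) and 0.18 (Ppara). The calls of Pparg (adjusted p = 0.0411) and Ppara (adjusted p = 0.0131) are lost under other scalings and when single libraries are left out, with an adjusted p of up to 0.225 and 0.259. Cholesterol synthesis genes fell in 16 of 27 cases and rose in 3, with small sizes (median -0.17): Hmgcs1 by 0.43 (SE 0.039) and Stard4 by 0.32, against a rise of 0.50 in Acat2. Of 16 genes of LXR and its targets 8 were lower and 3 higher, with Scd1 (-0.55), Lpcat3 (-0.44) and Abcg5 (-0.33) lower and Fasn (0.29) higher. The 2 receptor genes differed, Nr1h3 rising by 0.50 (SE 0.095) and Nr1h2 falling by 0.21 (SE 0.067), the latter lost when H10 a or H90 a is left out and under upper-quartile or library-size scaling.

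Stress response lists differed in direction. Targets of ATF4, the factor made when translation is curbed, fell in 26 of 33 cases and rose in 2, with a median of -0.43. Chac1, which degrades glutathione, was at 70.9, 73.9 and 77.6 CPM in H10 and 29.4, 29.6 and 26.2 in H90 (-1.38, SE 0.087, adjusted p = 2.05e-15), while vehicle was between 13.4 and 14.3. Trib3 (-1.47, SE 0.10), Ddit3 (-1.30, SE 0.097) and Asns (-0.70, SE 0.058) fell too, and Atf4 itself went from 618 to 625 CPM down to 440.0 to 459 (-0.46, SE 0.041). Of 24 genes of NRF2, the antioxidant factor, 12 were lower and 4 higher (median -0.18), with the cystine carrier Slc7a11 at -1.30 (SE 0.14), Osgin1 at -0.73, Srxn1 at -0.50, Txnrd1 at -0.37 and Nfe2l2 itself at -0.33 (SE 0.040). For the endoplasmic reticulum 9 of 27 genes were lower and 2 higher. Herpud1 (-0.58, SE 0.050), Dnajb9 (-0.59, SE 0.085) and Edem1 (-0.29, SE 0.056) were lower, but the chaperone Pdia4 was higher (0.35, SE 0.061). Heat shock proteins rose in 7 of 15 cases and fell in 1, led by the mitochondrial pair Hspe1 (0.87, SE 0.089) and Hspd1 (0.77, SE 0.050), with Hsp90ab1 (0.41) and Hspa8 (0.23).

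Growth factor and early response genes were lower as well. In a list of fetal-like repair and YAP target genes 13 of 20 were lower and 1 higher, with a median of -0.50. The EGF receptor ligand Areg was at 299, 287 and 294 CPM in H10 and 96.1, 106 and 115 in H90, 2.79-fold lower (-1.48, SE 0.065, adjusted p = 1.25e-17), and the related ligand Ereg fell by 1.38 (SE 0.063). Amotl2, a YAP target, was at 21.3, 21.3 and 20.5 CPM in H10 and 8.22, 8.08 and 8.30 in H90 (-1.36, SE 0.13), and Krt7 fell by 0.51. Immediate early genes, which answer growth signals within the hour, fell in 18 of 30 cases and rose in 2 (Myc and Etv4), with a median of -0.60. Phlda1 fell by 1.04 (SE 0.082), Fosl2 by 0.76, Klf6 by 0.75 and the mRNA decay factor Zfp36 by 0.64. Of 11 tested glucocorticoid-inducible genes 6 were lower and 2 higher, the EGF receptor inhibitor Errfi1 by -0.78 (SE 0.069) and Sgk1 by -0.48 (SE 0.14), against 1.56 (SE 0.21) for Hsd11b2 and 1.03 (SE 0.14) for Fkbp5, while the receptor Nr3c1 was not called (-0.07, SE 0.055). The Sgk1 call is lost when H90 a is left out and in a fit of the 6 libraries alone.

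Immune, metal, metabolic and clock genes gave smaller or mixed changes. Of 30 interferon and MHC class I genes 9 were lower and none higher (median -0.26), with Ddx58 (-0.63), H2-K1 (-0.40), H2-D1 (-0.24) and B2m (-0.21) called. Mucosal defence genes were higher in 7 of 21 cases and lower in 3, with all 5 lectins higher, and Pigr, which carries IgA across the epithelium, went from 1211 to 1272 CPM up to 1868 to 1895 (0.61, SE 0.038), while Il18 fell by 0.65. Among 24 metal genes 5 were higher and 9 lower. The metallothioneins Mt2 (0.54, SE 0.045) and Mt1 (0.38, SE 0.048) were higher and the ferroxidase Heph was lower (-0.52, SE 0.047), and the list median of -0.02 changes sign when only library size is used for scaling. Glycolysis and hypoxia genes fell in 9 of 26 cases and rose in 1, with Hif1a (-0.57), Epas1 (-0.50), Pfkp (-0.49) and Pfkfb3 (-0.46) lower. Of 18 clock genes 8 were lower and none higher, with Cry2 (-0.75), Nr1d1 (-0.56) and Npas2 (-0.33) among those called. The calls of Pfkfb3 and Npas2 are not kept in H90 a alone against H10.

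**Figure D3:**
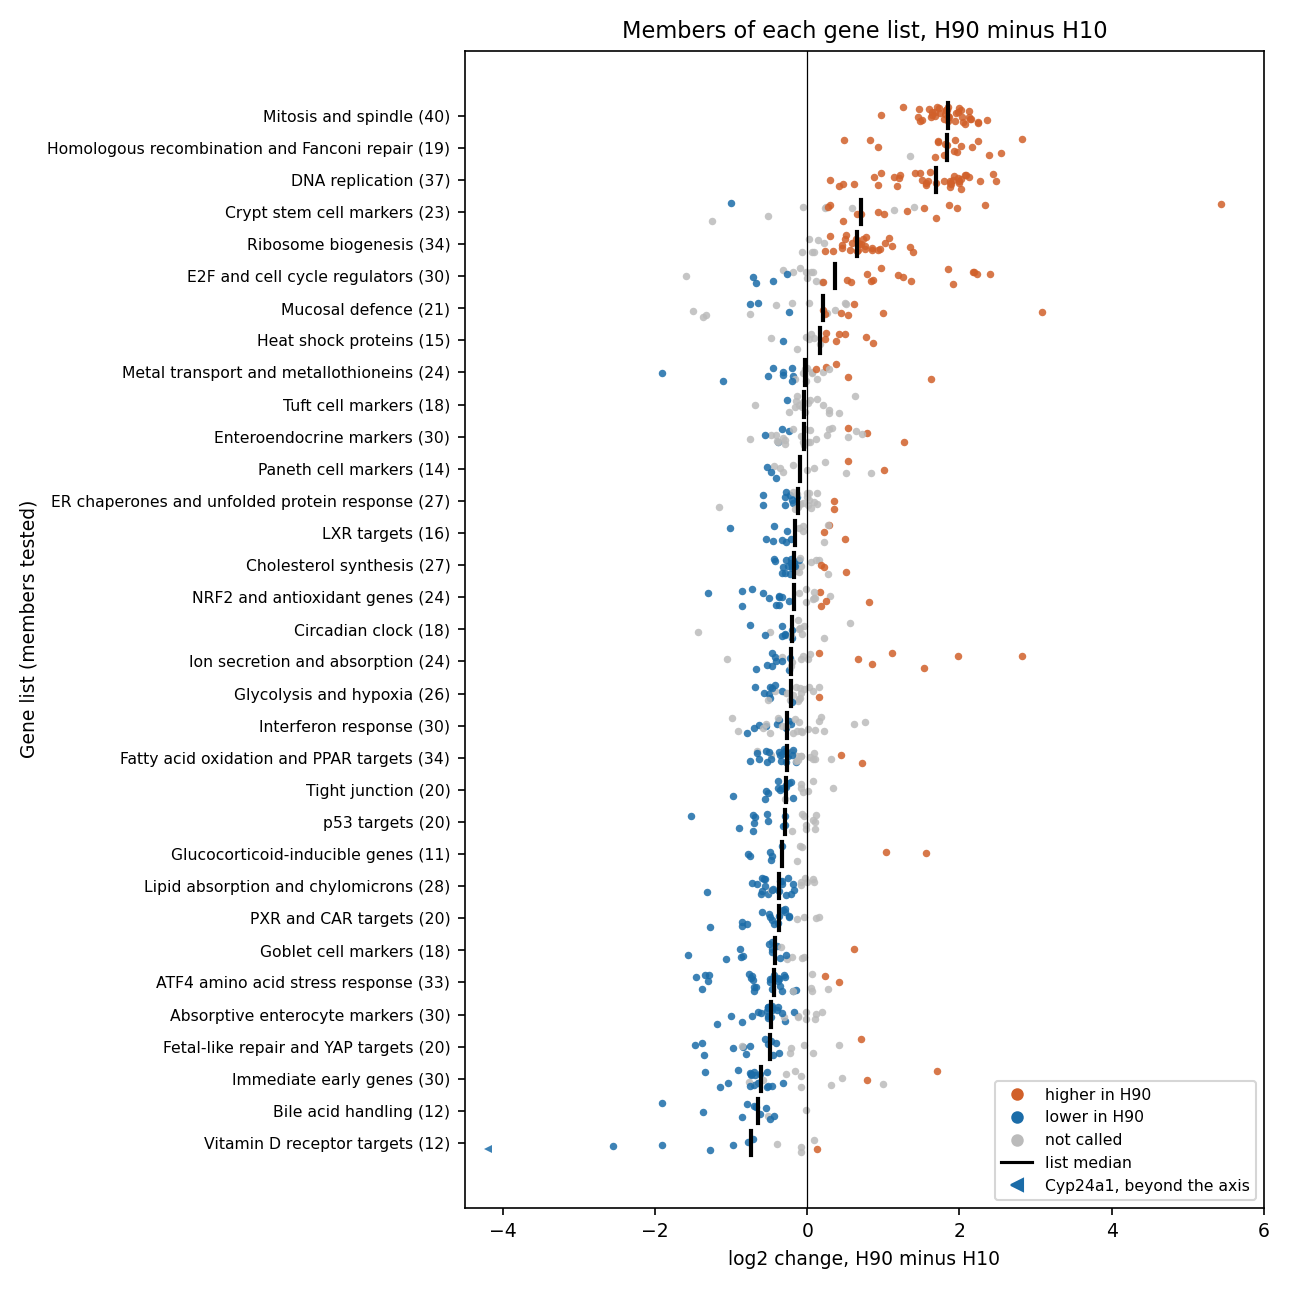
Log2 change, H90 minus H10 (x axis), of every tested member of each gene list with at least 10 tested members (y axis, number tested in brackets; the liver list is left out); orange and blue points passed the adjusted p threshold of 0.05, grey points did not, and black bars are list medians. Mitosis, repair and replication genes lie between 0.30 and 2.82, and the bile acid and vitamin D receptor lists lie lowest, with Cyp24a1 at -8.34 drawn at the edge.

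The remaining largest falls included the class I gene H2-Q1 (64.2, 64.8 and 67.8 CPM in H10 against 16.6, 22.5 and 20.4 in H90, -1.74, SE 0.089), the AP-1 repressor Jdp2 (-1.67, SE 0.13) and the brush border phospholipase Plb1, from 69.4 to 79.2 CPM down to 22.7 to 25.8 (-1.61, SE 0.10). Rin1, a RAS effector, fell by 1.61 (SE 0.11), Klrg2 by 1.59 (SE 0.27), Pdlim2 by 1.55 (SE 0.12) and the peptide hormone Adm by 1.47 (SE 0.34). Crip2 was at 5.17, 6.71 and 4.51 CPM in H10 and 3.01, 0.813 and 1.86 in H90 (-1.48, SE 0.32), and its call is not kept in H90 a alone against H10. Genes with near-identical copies, such as H2-Q1, Mt1 and Mt2, the Cyp3a genes and the Defa genes of Paneth cells, are less certain, because how reads shared between copies were counted is not given in the sources used here.

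Markers of other cell types were low or split by library. Of 15 fibroblast, endothelial and muscle markers 4 passed the low-count filter. Their summed level was between 10.3 and 11.8 unscaled CPM in H10 and 18.1, 25.4 and 23.8 in H90. Pdgfrb was higher (0.59, SE 0.19, adjusted p = 0.0149, a call lost when H10 b, H10 c or H90 a is left out), and Col1a1, at 0 to 0.108 CPM in H10 and 0, 5.58 and 8.21 in H90, was called (6.37, adjusted p = 0.00927) from H90 b and c alone, but not by limma-voom (adjusted p = 0.309). Thy1 and Col6a2 were at 0 in all 6. None of the 5 immune markers tested of 17 was called, the summed level of the list was between 8.37 and 10.8 CPM over both groups, and Cd8a and Gzmb were at 0. Of 26 tested liver transcripts, Cps1, also made in intestinal epithelium, was higher (1.13, SE 0.047) and Serpina1b lower (-0.60, SE 0.15), with Alb at 139, 94.8 and 96.8 CPM in H10 and 115, 41.7 and 62.6 in H90 (-0.57, SE 0.32, not called). Leaving out H90 a makes 19 of the 26 lower, and H90 a alone against H10 makes none lower, Serpina1b included. A fit without the liver and stromal genes called 4819 genes and kept 99.9% of the calls in H90 against H10. It removes only the marker genes themselves, so the part of other cell types in the other results was not tested.

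Changing the share from 10% to 90% was also measured in the mouse-like pools, in 6 other libraries. There 5428 genes (41.2%) were called, and 3192 genes were called in both models, which is 66.3% of the calls in the human-like and 58.8% of those in the mouse-like comparison. Of these 93.9% had the same sign. A difference between both changes, tested as an interaction, passed for 1943 genes (14.8%), of which 910 were more positive and 1033 more negative in the human-like pools. M10 libraries, like those of H90, had few genes at exactly 1 count (213 to 246).

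For bile acid handling, 9 of 12 genes passed this test, and 8 of them were more negative in the human-like pools. Fabp6 fell by 0.55 in the human-like pools and rose by 0.53 in the mouse-like ones, where means were 7316 CPM in M10 and 10591 in M90, a difference of -1.08 (SE 0.14, adjusted p = 0.000346). Nr0b2 likewise fell by 0.86 and rose by 0.69 (difference -1.55, adjusted p = 0.00146), and the change in Fgf15 was -1.37 against -0.44 (difference -0.92, adjusted p = 3.38e-06). Slc51a and Slc51b differed by -0.71 and -0.89. The exception was Slc10a2, which fell more in the mouse-like pools (-1.67, difference 0.97, adjusted p = 0.00405).

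Cyp24a1 fell in both models, with changes of -8.34 and -9.77 (difference 1.43, adjusted p = 0.00925), with means of 493 CPM in M10 and 0.564 in M90. Olfm4 rose by 5.44 in the human-like pools, but was at means of 0.255 and 0.556 CPM in M10 and M90 (1.24, not called, difference 4.20, adjusted p = 0.000193). Fkbp5, a glucocorticoid-induced chaperone, moved in opposite directions, rising by 1.03 here and falling by 2.28 from a mean of 85.9 CPM in M10 to 17.6 in M90 (difference 3.32, SE 0.18, adjusted p = 2.09e-16). Psca was not called in the human-like pools (0.21, SE 0.21) and fell by 2.58 in the mouse-like ones (difference 2.79, adjusted p = 3.05e-09). In the mouse-like pools all 40 tested mitosis genes were higher, as were 30 of 37 replication genes, with 1 lower (Prim2, -0.56, named after its value was seen). Of all 13159 genes tested, 2799 were called higher and 2629 lower in M90 against M10. The cyclin gene Ccnd2, higher in the human-like pools, was lower in the mouse-like ones (-0.17, adjusted p = 0.0136). Among the most negative differences was that of Esco2, the cohesin acetyltransferase, which rose by 2.15 here and by 6.43 in the mouse-like pools (difference -4.28, adjusted p = 1.24e-05), where M10 had a mean of 0.0467 CPM. Cenpm (-3.71) and Rad51ap1 (-3.69) were similar. Exo1, Fanci and the oxidase Nox1 were at 0 in all M10 libraries, so the fitted differences of -5.62, -5.34 and -4.23 depend on the small count added in the fit.

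**Figure D4:**
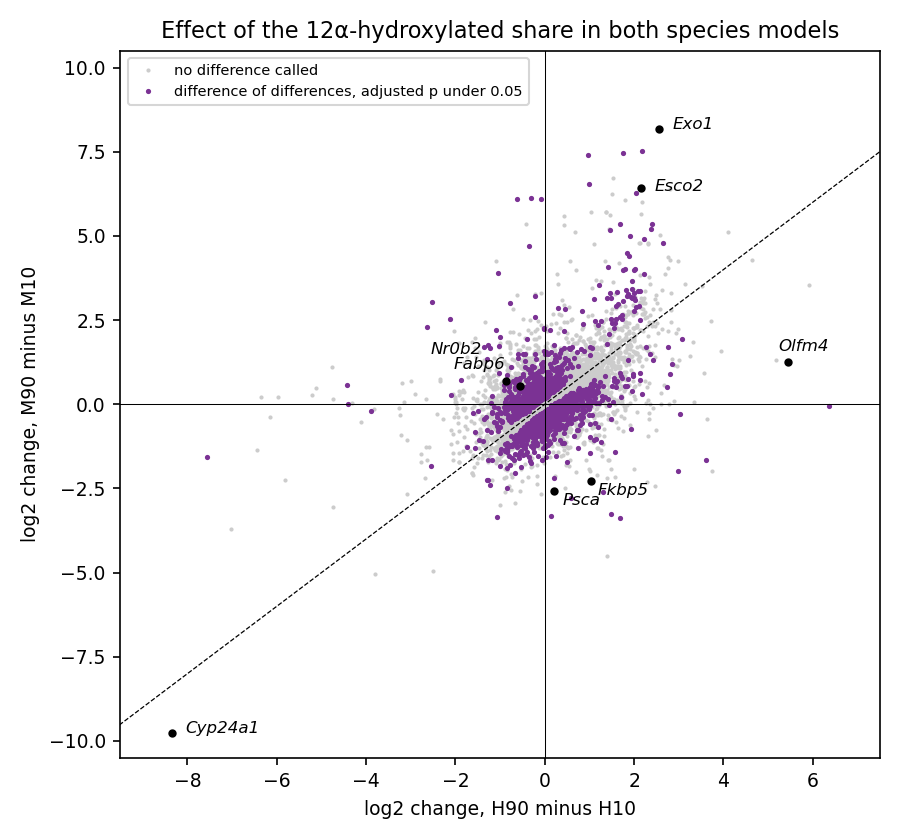
Log2 change of each tested gene from the 10% to the 90% share in the human-like pools (x axis) and the mouse-like pools (y axis); purple points are the 1943 genes whose changes differed at an adjusted p under 0.05, grey points the others, and the dashed line marks equal changes. Cyp24a1 lies far down in both, Exo1 and Esco2 above the line, and Olfm4 and Fkbp5 below it.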

How the data were processed

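Poly-A-selected RNA from 15 organoid samples was sequenced, per the labels' protocols. Each deposited file lists unnormalized read counts by gene symbol for 1 library, made by the authors with bcl2fastq 2.17, STAR 2.5.2b and featureCounts 1.5.0-p3 on mm10 (GRCm38), per the submitters' processing notes. The annotation, strand setting and handling of multi-mapped reads are not given in the sources used here.

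All 15 libraries and their 5 group means were fitted with edgeR 4.0.16 (robust quasi-likelihood, TMM scaling, default expression filter), which tested 13159 of 23420 symbols with 10 residual degrees of freedom. The contrasts were H90 minus H10 and its difference from M90 minus M10. Calls have a Benjamini-Hochberg adjusted p under 0.05 over all genes tested. The standard error was taken from the change and its F statistic.

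Members and gene lists were chosen with earlier results of these data known, so lists are described by counts and medians only. Of 865 listed genes, 860 matched a symbol. Named genes are all bile acid handling genes and the 15 largest rises and falls. Those were called, with a mean of at least 2 CPM and no overlap between groups. Predicted genes, such as those with Gm, Rik or LOC names, were passed over. Also named are up to 4 genes per list with the smallest adjusted p, and receptors and factors lists are named for. The 6 largest interactions of each sign and markers that set libraries apart were added. Another 17 list members, among them Lgr5, Mki67 and Pcna, were named after their values were seen. A few genes that these rules choose are not reported here. Coordinates and promoters are from RefSeq (GRCm38.p6).

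Alternatives were other scalings, filters and tools (limma 3.58.1, DESeq2 1.42.0), a replicate block and a term for library set (the Mup20 and Col1a1 split). Others were H90 a alone, leaving out each library and leaving out the liver and stromal genes. Only H90 has libraries on both sides of the Mup20 and Col1a1 split. The H90 minus H10 change with the library-set term is therefore in effect that of H90 a against H10. Same-letter replicates of H10 and H90 correlated by 0.0793, 0.0449 and 0.0261 in their deviations from the group means, so they were treated as unpaired. No 2 libraries of a group agreed within sampling noise. Figures used matplotlib 3.10.9.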

Additional observations from a re-analysis of the deposited data

Results flagged for a closer look

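For 96 named genes the change from the 10% to the 90% share differed between the human-like and mouse-like pools by the interaction test (edgeR, adjusted p under 0.05), and each difference is given here as H90 minus H10 less M90 minus M10 on the log2 scale. Negative values mean a more negative or less positive change in the human-like pools. The 5 genes with the smallest adjusted p were Fkbp5, Slc51b, Ccnd2, Reg3g and Nfe2l2. No explanation of these differences was tested.

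Bile acid handling genes gave 0.97 for Slc10a2, -1.08 for Fabp6, -0.71 for Slc51a, -0.89 for Slc51b, -0.34 for Abcc3, -0.34 for Abcc2, -0.28 for Nr1h4, -0.92 for Fgf15 and -1.55 for Nr0b2. Only Slc10a2 among them was positive. Vitamin D receptor and drug metabolism genes gave 1.43 for Cyp24a1, -0.71 for S100g, 0.33 for Atp2b1, -0.24 for Vdr, 0.37 for Cyp3a11, 0.51 for Cyp3a13, -0.21 for Abcb1a, -0.37 for Nr1i2 and 0.56 for Ahr.

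Division genes fell on both sides of 0. Positive differences were 1.07 for Rrm1, 1.24 for Mcm6, 0.55 for Mcm7, 0.57 for Mcm3, 0.38 for Pcna, 1.02 for Ccnd2, 1.08 for Myc and 0.30 for E2f4. Outside the lists, Suv39h2 gave 1.90 and Nmral1 1.64. Negative differences among division genes were -0.36 for Top2a, -0.85 for Mki67, -0.92 for Cdc20, -2.15 for Timeless, -2.81 for Rad54l, -3.69 for Rad51ap1, -5.62 for Exo1, -5.34 for Fanci, -4.28 for Esco2, -3.71 for Cenpm, -2.69 for E2f7 and -0.24 for Cdkn2b. Timeless and Rad54l had M10 means of 0.068 and 0.041 CPM. Like those of Exo1, Fanci and Esco2, their differences depend on few counts in M10, so their sizes are uncertain. Timeless and Rad54l rose by 4.79 and 5.20 in the mouse-like pools. E2f7 (4.92), Cenpm (5.17) and Rad51ap1 (5.37) rose there by similar amounts, and the sizes of their differences call for the same care. Crypt, secretion and nucleolar genes named here were positive, with 4.20 for Olfm4, 1.06 for Myb, 0.75 for Ephb2, 1.46 for Slc12a2, 1.05 for Sox9, 1.13 for Cftr, 0.40 for Kcnq1, 0.51 for Nop56, 0.26 for Ncl, 3.31 for Rmrp and 2.24 for Rpph1. The early response gene Etv4 gave 1.5.

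Enterocyte, goblet, hormone and junction genes gave -0.23 for Myo1a, -0.37 for Slc2a2, -1.35 for Plb1, 0.57 for Cps1, -0.27 for Zg16, 0.45 for Fcgbp, -0.49 for Cck, -0.71 for Sst, -0.32 for Cldn3 and 0.20 for Epcam. Crip2 and Pdlim2, in none of the lists, gave -1.28 and -0.73. Lipid and sterol genes gave -0.47 for Hsd17b4, -0.49 for Hadha, -0.55 for Ppara, -0.18 for Hmgcs1, 0.40 for Acat2, -0.60 for Scd1, -0.39 for Lpcat3 and 0.48 for Fasn. Stress genes gave -0.21 for Atf4, -0.40 for Trib3, -0.53 for Ddit3, 0.29 for Herpud1, -0.42 for Srxn1, -0.91 for Osgin1, -0.67 for Nfe2l2 and 0.19 for Hspa8.

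Defence and presentation genes gave 1.15 for Dmbt1, -0.50 for Pigr, -0.80 for Reg3g, -4.23 for Nox1, -0.29 for B2m and -0.46 for H2-Q1. For growth factor, early response, glucocorticoid and clock genes the values were -0.28 for Ereg, 0.37 for Krt7, 0.19 for Klf6, -0.24 for Fosl2, 0.87 for Mxd1, 3.32 for Fkbp5, 1.04 for Sgk1 and -0.65 for Cry2. Psca, in none of the lists, gave 2.79. Col1a1 differed by 6.42 (adjusted p = 0.0478), and its levels in H90 rest on replicates b and c.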

How the results depend on the processing

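Of 191 genes chosen for naming and called in H90 against H10, 170 kept their call under every alternative run. The 21 that lost it under at least 1 were Crip2, Tiparp, Itln1, Lyz1, Gip, Nkx2-2, Pfkfb3, Serpina1b, Col1a1, Pdgfrb, Sgk1, Npas2, Ppara, Pparg, Nr1h2, E2f4, E2f6, Rn45s, Msi1, Rxra and Rb1. Genes named for a large change or a small adjusted p were likely to keep their calls. The fit with the term for library set and that of H90 a alone make in effect the same comparison of H90 with H10. They are not separate checks, and the term cannot adjust for the library split apart from H90 a. Of all genes called, 67.8% kept the call with the term for library set, and between 83% and 86.5% when 1 library was left out. The number of genes called, 4815, stayed between 3479 (term for library set) and 4995 (library size alone), and between 4080 and 4524 when 1 library was left out. Other tools gave 4986 (DESeq2) and 4786 (limma-voom). The interaction count of 1943 ranged from 1442 (term for library set) to 2144 (DESeq2). Scaling moved the balance of directions, with 49.8% of calls higher under TMM, 59.3% under upper-quartile scaling and 66.9% with library size alone. With a replicate block the count was 4889, and no gene chosen for naming changed its call. The shared letters were not taken as pairs. Every H10 and H90 library correlated more with its own letter than with the others, though weakly.

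Some values changed sign, and the cause was not tested. Upper-quartile scaling gave 0.036 for Gpbar1 and 0.046 for E2f3, and library size alone gave 0.078 for Gpbar1, 0.019 for Nr3c1 and 0.089 for E2f3. With no low-count filter the aryl hydrocarbon receptor list had a median of 0. With the term for library set Col1a1 was -3.20, Nr1i3 -0.29, E2f3 0.021, Psca -0.053, Mup20 0.063 and Alb 0.071, and the immune marker median 0.037. In H90 a alone against H10, in effect the same comparison, they were -3.26, -0.29, 0.025, -0.050, 0.068, 0.075 and 0.016. There Nr3c1 was at 0.0015 and the aryl hydrocarbon receptor median at 0.051. Leaving out 1 library put Gpbar1 between -0.96 and 0.47, Nr1i3 between -0.020 and 0.34, E2f3 between -0.044 and 0.048 and Psca between -0.018 and 0.35. H90 c had the fewest counts, and no result was recomputed at equal depth.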
